A study of Homo sapiens with 32 samples.

Results

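The BCL2 family decides whether a cell's mitochondria release the proteins that start apoptosis. Anti-apoptotic members (MCL1, BCL2L1, BCL2L2) hold back the effectors BAX and BAK1, which make pores in the outer mitochondrial membrane. The BH3-only members (BID, BAD, BIK, BCL2L11, BMF) sense stress and either block the anti-apoptotic members or activate the effectors. MCL1 in particular is known for a short-lived mRNA and a short-lived protein.

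The decay rates of these genes were compared between MDA-LM2 and MDA-MB-231. MDA-LM2 was derived from MDA-MB-231, an established line of human breast cancer cells, by selection for metastasis to the lung. Cells of both lines were grown alike and given 4-thiouridine (4sU), a uridine analogue that enters newly made RNA, for 2 h, after which medium with excess uridine replaced it. Labelled RNA was taken after 0, 2, 4 and 7 h from 4 replicate series per line, labelled 1_1, 1_2, 2_1 and 2_2, which gave 16 libraries of MDA-LM2 and 16 of MDA-MB-231. The authors' tables hold 1 decay rate per RefSeq transcript and series, in a unit whose log base and scaling are not given. A positive rate means that abundance fell during the chase, and a higher rate means faster decay.

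Members were found by mapping the RefSeq identifiers of both tables to gene symbols. Of the 10 listed genes, 6 had a row in both tables (MCL1, BCL2L1, BCL2L2, BAX, BAK1 and BAD), with 9 transcripts among 12966, and 6 genes among 10829. BCL2L11 had a row in the MDA-LM2 table only, and BID, BIK and BMF were not analysed here. All 3 anti-apoptotic genes and both effectors were therefore measured, but only BAD of the 5 BH3-only genes. No filter on low values was applied, so all 9 transcripts were tested.

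The tables hold rates and no expression levels, so the identity of the lines could not be checked by marker level. Rows were present for the mesenchymal carcinoma markers VIM, CD44, EGFR, SPARC and AXL and for the epithelial marker EPCAM. The luminal markers ESR1 and PGR and the immune markers PTPRC and CD3E had no row in either table analysed here. Over all genes the median rate was 0.165 ± 0.0106 in MDA-LM2, against 0.189 ± 0.0152 in MDA-MB-231 (SD, n = 4 series each), and 67.0% of genes had a lower mean in MDA-LM2. Rates above 5 made up 1.13 to 1.87% of transcripts in the MDA-LM2 series and 9.12 to 10.0% in the MDA-MB-231 series. Whether each series was a separate culture is not stated, and p-values cover only the spread among the series, which may be technical.

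MCL1 and BCL2L1 were each measured as several splice forms whose proteins act in opposite ways, so the junctions that tell the forms apart are shown here. They were read from the GENCODE v29 transcripts (GRCh38) matched to the RefSeq identifiers, each from 5′ to 3′, with the 30 bases after the junction in capitals. The long MCL1 transcript (NM_021960) encodes the anti-apoptotic protein. The transcript NM_182763 skips its second exon, the 248 bases at chr1:150578244-150578491 on the minus strand, and encodes a pro-apoptotic BH3-only protein. The transcript NM_001197320 lacks 459 coding bases within the first exon, chr1:150578964-150579422, and its product is also known as pro-apoptotic.
MCL1 NM_021960, exon 1 to exon 2: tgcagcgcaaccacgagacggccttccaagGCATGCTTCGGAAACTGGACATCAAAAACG
MCL1 NM_182763, exon 1 to its last exon: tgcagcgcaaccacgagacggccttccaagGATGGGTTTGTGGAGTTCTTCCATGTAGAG
MCL1 NM_001197320, junction within exon 1: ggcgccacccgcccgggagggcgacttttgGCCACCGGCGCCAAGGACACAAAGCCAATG

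For BCL2L1, NM_138578 encodes the anti-apoptotic Bcl-xL. NM_001191 encodes the pro-apoptotic Bcl-xS, made from an upstream splice donor that removes 189 coding bases, chr20:31721655-31721843 on the minus strand. Both forms join the same last exon, so their capitals are identical and the lower-case donor side differs.
BCL2L1 NM_138578, Bcl-xL: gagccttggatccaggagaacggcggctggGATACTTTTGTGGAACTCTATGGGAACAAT
BCL2L1 NM_001191, Bcl-xS: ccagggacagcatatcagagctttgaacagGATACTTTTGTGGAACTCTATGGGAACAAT
Apart from such junctions, a few stretches and their annotated ends, the forms of a gene share their exons. The exon-skipped MCL1 form ends early in the annotation, with 294 bases of 3′ untranslated sequence, against 2819 in the long form. How reads were divided between them is not given in the sources used here, and the rates of forms of 1 gene are therefore uncertain relative to each other.

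**Figure D1:**
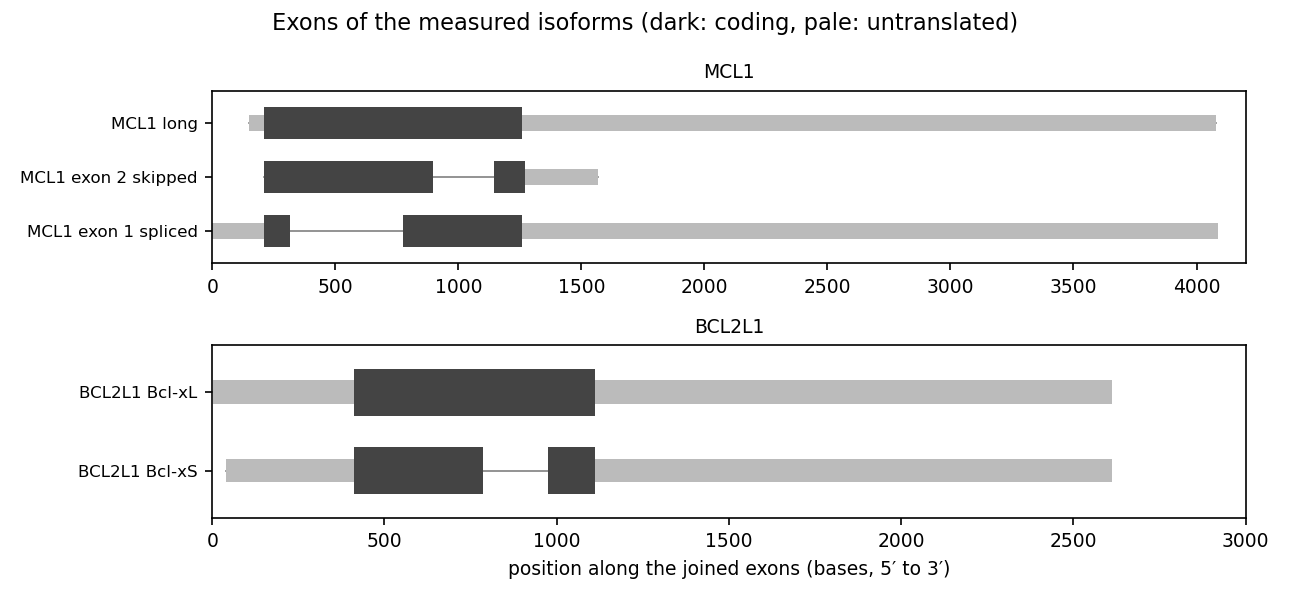
Exons of the MCL1 and BCL2L1 transcripts with decay rates, drawn along the joined exons of each gene in bases, with tall dark blocks for coding sequence, low pale blocks for untranslated sequence and thin lines for bases that a form lacks. Within their shared spans, the MCL1 forms differ by the 248 bases of exon 2 and by 459 bases within exon 1. The BCL2L1 forms differ there by 189 bases. Annotated ends differ as well, and the exon-skipped MCL1 form has 294 bases of 3′ untranslated sequence, against 2819 in the long form.

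At gene level MCL1 was among the faster-decaying genes of MDA-LM2, and its gene-level rate was lower in MDA-LM2 than in MDA-MB-231. The long, anti-apoptotic form did not itself give this rate in any series, and its own rates are given below. The median over the 3 MCL1 transcripts was 0.336, 0.374, 0.35 and 0.367 in the MDA-LM2 series 1_1, 1_2, 2_1 and 2_2. In the MDA-MB-231 series it was 0.553, 0.514, 0.515 and 0.62. Every MDA-LM2 series lay below every MDA-MB-231 series. Of all genes, 86.1% had a lower mean gene-level rate than MCL1 in MDA-LM2, against 71.8% in MDA-MB-231. These ranks are within each line. In MDA-MB-231, where rates above 5 were more frequent, MCL1 had the lower rank although its mean rate was higher (0.551, against 0.357 in MDA-LM2). The difference was -0.194 ± 0.0355 (SE), with a 95% interval of -0.278 to -0.11, and it passed limma's test over all genes (adjusted p = 0.0189). Of all genes, 6.71% were called slower in MDA-LM2 by this test and 2.00% faster (727 and 217 genes), and MCL1 was the only one of the 6 members called in either direction. After each series was centred on its median the counts over all genes were 560 slower and 434 faster, and the MCL1 difference was -0.169 (adjusted p = 0.0315).

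This call rested on how the MCL1 transcripts were joined. The median came from NM_182763 in 3 of the 4 MDA-LM2 series and from NM_001197320 in the remaining one, and in MDA-MB-231 it came from each of these in 2 series. No single MCL1 transcript passed the test when transcripts were fitted separately. The call was also lost when series of a line with the same second label number were allowed to correlate (adjusted p = 0.109), when the mean over transcripts replaced the median (difference -0.724, adjusted p = 0.462), and when any 1 of the 4 MDA-LM2 series was left out (adjusted p between 0.0565 and 0.0727).

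The long, anti-apoptotic MCL1 transcript NM_021960 had rates that split by the second number of the series label in both lines. In MDA-LM2 the rates were -0.00323 and 0.0784 in series 1_1 and 2_1, and 2.49 and 1.87 in series 1_2 and 2_2. In MDA-MB-231 they were -0.552 and -0.0376 in series 1_1 and 2_1, and 2.44 and 1.19 in series 1_2 and 2_2. The series ending in 2 were thus the high ones in both lines, and the lines overlapped. A split of this direction, with both series ending in 2 more than 1 above both series ending in 1 in each line, was present in 18 of 12966 transcripts (0.139%), and the opposite split in 28 (0.216%). What the second number stands for is not stated, and its part in the MCL1 rates was not tested. The difference between lines was 0.347, with an interval of -1.67 to 2.37 (limma, adjusted p = 0.796), so neither a faster nor a slower decay of the long form could be read from these series.

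The exon-skipped MCL1 transcript NM_182763 had closely spaced rates of 0.336, 0.355, 0.35 and 0.367 in MDA-LM2. In MDA-MB-231 its rates were 9.56, 0.514, 0.691 and 0.62. The MDA-LM2 rates all lay below those of MDA-MB-231, where series 1_1 stood far above the other 3. The difference was -2.49, with an interval of -7.42 to 2.43 (limma over transcripts, adjusted p = 0.46). Without MDA-MB-231 series 1_1 it was -0.257 and passed the test (adjusted p = 0.0345). Rates near 9.5 recurred across the table: the rates above 5 had a median of 9.38 in MDA-LM2, against 9.46 in MDA-MB-231. How the authors treated libraries with no signal at a time point is not stated, and its part in these rates was not tested.

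The third MCL1 transcript, NM_001197320, had rates of 0.426, 0.374, 0.437 and 0.356 in MDA-LM2, against 0.553, 0.305, 0.515 and 0.323 in MDA-MB-231. The lines overlapped, and the series ending in 1 were the higher ones in both. The difference was -0.0258, with an interval of -0.183 to 0.132 (limma, adjusted p = 0.806). Among all genes, the 3 whose rates lay closest to those of the MCL1 median over the 8 series were PPM1D, EHF and BCL10, with root mean square differences of 0.0673, 0.0679 and 0.0701.

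**Figure D2:**
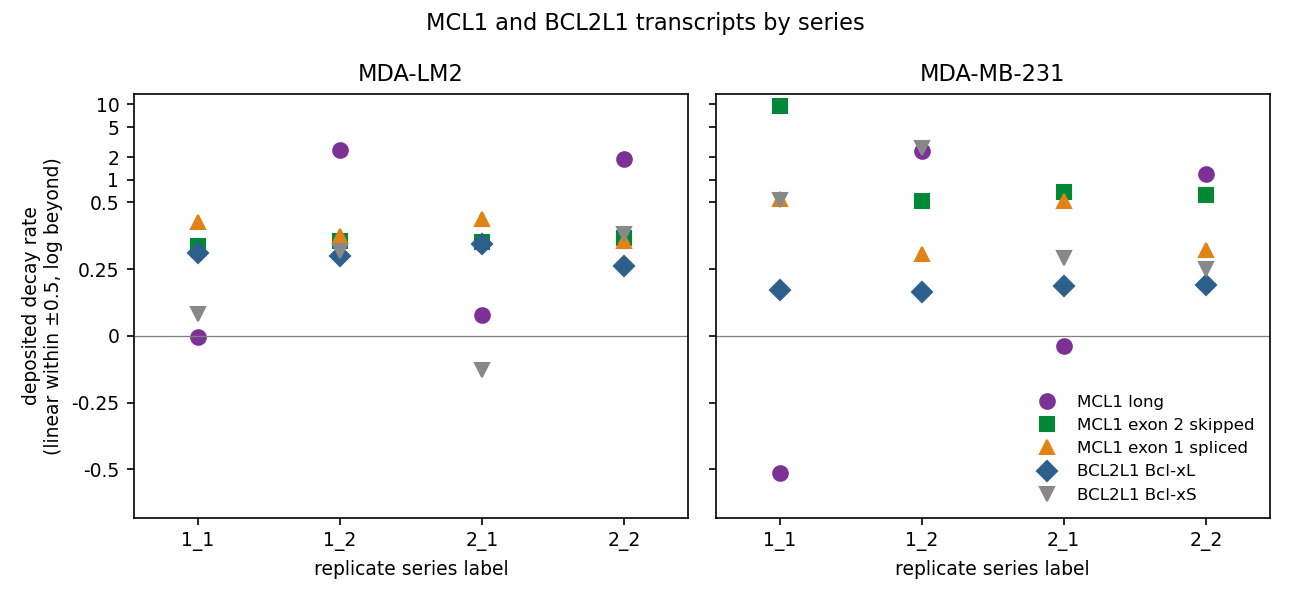
Deposited decay rates of the 3 MCL1 and 2 BCL2L1 transcripts by replicate series label, MDA-LM2 on the left and MDA-MB-231 on the right, on an axis that is linear within 0.5 of 0 and logarithmic beyond. The long MCL1 transcript is above 1 in series 1_2 and 2_2 and below 0.1 in series 1_1 and 2_1 of both lines.

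Bcl-xL, the anti-apoptotic form of BCL2L1, decayed faster in MDA-LM2. The rates of NM_138578 were 0.31, 0.298, 0.342 and 0.26 in MDA-LM2, against 0.17, 0.163, 0.186 and 0.191 in MDA-MB-231. Every MDA-LM2 series lay above every MDA-MB-231 series, and the transcript was faster than 80.4% of all transcripts in MDA-LM2 and than 41.7% in MDA-MB-231. These ranks are within each line, and the distributions differed. The 80th percentile of the mean rate was 0.3 in MDA-LM2, while in MDA-MB-231 the 62nd percentile was 0.297. The difference in rate between the lines was 0.125 ± 0.0232 (SE), with an interval of 0.0704 to 0.18 (limma over transcripts, adjusted p = 0.0211). Over all transcripts, 6.04% were called slower and 1.90% faster in MDA-LM2, and among the 9 member transcripts 0 were called slower and 1 faster, this one. The authors' deposited table gives it a score of -0.997, whose sign marks faster decay in MDA-LM2, and the p behind that score had an adjusted value of 0.048. The call was lost with correlated series (adjusted p = 0.0962) and without MDA-LM2 series 1_1, 1_2 or 2_1 (adjusted p of 0.0731, 0.0633 and 0.0614).

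Bcl-xS, the short pro-apoptotic form, varied widely. The rates of NM_001191 were 0.0811, 0.317, -0.128 and 0.382 in MDA-LM2, against 0.538, 2.64, 0.293 and 0.25 in MDA-MB-231. The lines overlapped, and MDA-MB-231 series 1_2 stood apart. In MDA-LM2 the series ending in 2 lay above those ending in 1, and in MDA-MB-231 the series did not split this way. The difference was -0.768, with an interval of -2.05 to 0.518 (limma, adjusted p = 0.386). The differences of the 2 forms had opposite signs. The gene-level value of BCL2L1, the median over both, was 0.233 ± 0.101 in MDA-LM2, against 0.554 ± 0.569 in MDA-MB-231 (SD, n = 4 series each), with a difference of -0.321 and an interval of -0.954 to 0.311 (limma, adjusted p = 0.453). Without MDA-MB-231 series 1_2 the Bcl-xS difference was -0.197 and the gene-level difference -0.0386, and neither passed the test. The gap between forms, Bcl-xL minus Bcl-xS, averaged 0.14 ± 0.265 in MDA-LM2, against -0.754 ± 1.16 in MDA-MB-231 (SD, n = 4 series each). In MDA-MB-231 series 1_2 it was -2.48, and -0.368, -0.107 and -0.0595 in the others. The difference between the lines in this gap missed the threshold by a two-sided exact permutation test (p = 0.0857, adjusted over 3 gaps 0.129), and this test and the 2 for MCL1 were chosen after the values were seen.

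For MCL1 the gap between the long and the exon-skipped form averaged 0.755 ± 1.25 in MDA-LM2, against -2.09 ± 5.46 in MDA-MB-231 (SD, n = 4 series each; exact permutation p = 0.457, two-sided). The mean in MDA-MB-231 rested on series 1_1, at -10.1, where the other series gave 1.92, -0.728 and 0.572. The gap between NM_001197320 and NM_182763 was 0.0464 ± 0.0498 in MDA-LM2, against -2.42 ± 4.39 in MDA-MB-231. The size of that mean also rested on series 1_1, at -9.0, with -0.209, -0.176 and -0.298 in the others. The exact permutation p of this second gap was 0.0286, the smallest that 4 against 4 series allow, and 0.0857 after adjustment over the 3 gaps.

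BCL2L2 encodes the anti-apoptotic protein Bcl-w. Its transcript NM_001199839 had rates of 0.0504, 0.178, 0.137 and 0.134 in MDA-LM2, against 0.252, 0.201, 0.231 and 0.234 in MDA-MB-231. All MDA-LM2 series lay below all MDA-MB-231 series, but the difference of -0.105 (interval -0.175 to -0.0345) missed the threshold over all genes (limma, adjusted p = 0.0786). Groups that did not overlap in this direction were found for 16.6% of all transcripts, and in the opposite direction for 5.83%. Among the 9 member transcripts 2 lay wholly lower in MDA-LM2 (NM_182763 of MCL1 and BCL2L2) and 2 wholly higher (Bcl-xL and BAK1). The readthrough gene BCL2L2-PABPN1 shares exons with BCL2L2 and has its own row, with mean rates of 0.101 ± 0.0423 in MDA-LM2, against 0.0768 ± 0.0258 in MDA-MB-231 (SD, n = 4 series each), so reads of the 2 could not be told apart with certainty.

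**Figure D3:**
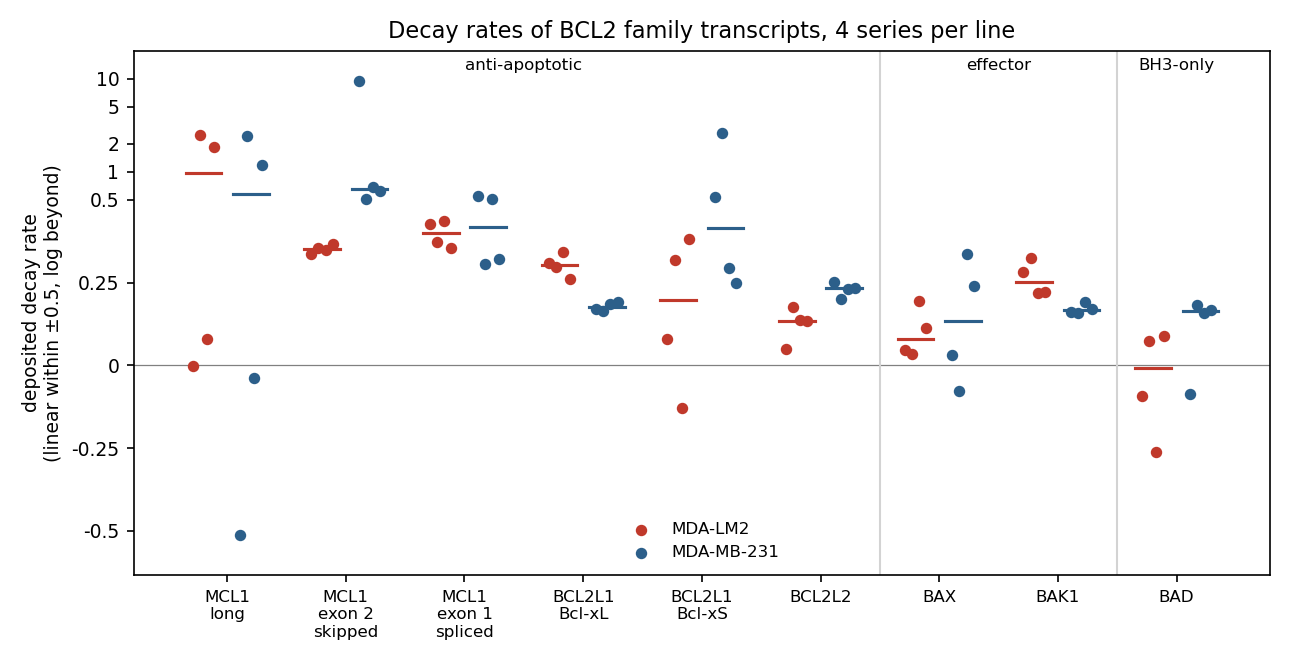
Deposited decay rates of the 9 member transcripts in each of the 4 series (points) with the median (bar), MDA-LM2 left and MDA-MB-231 right of each pair, on an axis that is linear within 0.5 of 0 and logarithmic beyond. Bcl-xL and BAK1 lie wholly higher in MDA-LM2, the exon-skipped MCL1 form and BCL2L2 lie wholly lower, and the other 5 overlap.

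Of the effectors, BAK1, which sits in the outer mitochondrial membrane and forms pores when activated, had rates of 0.281, 0.324, 0.219 and 0.221 in MDA-LM2, against 0.161, 0.158, 0.191 and 0.171 in MDA-MB-231. All MDA-LM2 series were higher, and the transcript was faster than 73.2% of all transcripts in MDA-LM2 and than 39.7% in MDA-MB-231. These ranks, too, are within lines whose distributions differed. The difference of 0.0911 (interval 0.0242 to 0.158) missed the threshold (limma, adjusted p = 0.098). It passed after each series was centred on its median (difference 0.116, adjusted p = 0.0344). Annotation holds 2 processed pseudogenes of BAK1, and their part in its rates was not tested.

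BAX moves from the cytosol to mitochondria on activation. Its only row, NM_004324, is a variant that keeps an intron, and the form usually studied is not analysed here. The rates were 0.048, 0.0351, 0.195 and 0.114 in MDA-LM2, against 0.0307, -0.0787, 0.338 and 0.24 in MDA-MB-231. The lines overlapped fully, with series 2_1 highest in both. The difference was -0.0343, with an interval of -0.259 to 0.19 (limma, adjusted p = 0.818), and its sign turned when MDA-MB-231 series 2_1 or 2_2 was left out.

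Among the BH3-only genes, BAD, which binds Bcl-xL and is held inactive by survival-factor signalling, had the lowest mean rate of the 6 measured members in both lines. The rates of NM_032989 were -0.0916, 0.0733, -0.263 and 0.0878 in MDA-LM2, against -0.0873, 0.182, 0.159 and 0.167 in MDA-MB-231. In both lines the series ending in 2 were the higher ones. The MDA-LM2 series 1_1 and 2_1 and the MDA-MB-231 series 1_1 were below 0, so the deposited rates show no fall in abundance there. Whether that abundance is relative to other RNAs is not stated. Only 4.12% of all transcripts had a lower mean in MDA-LM2, against 21.5% in MDA-MB-231, each within its own line. The difference was -0.153, with an interval of -0.383 to 0.0755 (limma, adjusted p = 0.326). BCL2L11 encodes BIM, a BH3-only protein that binds every anti-apoptotic member. Its transcript NM_207002 was listed at 9.26, 0.0, -9.13 and -8.15 in the MDA-LM2 series, which spans both extremes of the table, and no comparison was possible.

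At gene level MCL1 was among the 2 fastest members, and BAX and BAD were the slowest, in both lines. In MDA-LM2 the gene-level means were 0.357 ± 0.0169 for MCL1, 0.261 ± 0.0507 for BAK1, 0.233 ± 0.101 for BCL2L1, 0.125 ± 0.0536 for BCL2L2, 0.0981 ± 0.0733 for BAX and -0.0485 ± 0.165 for BAD (SD, n = 4 series each). Only MCL1 and BAK1, of the neighbours in that order, had series that did not overlap. In MDA-MB-231 the means were 0.554 ± 0.569 for BCL2L1, 0.551 ± 0.05 for MCL1, 0.229 ± 0.0209 for BCL2L2, 0.17 ± 0.0149 for BAK1, 0.132 ± 0.19 for BAX and 0.105 ± 0.129 for BAD. The place of BCL2L1 there rested on series 1_2, at 1.4, where its other series lay between 0.221 and 0.354. The series of MCL1 and BCL2L2, and those of BCL2L2 and BAK1, did not overlap. BAK1 thus stood above BCL2L2 in MDA-LM2 and below it in MDA-MB-231, and this change of order was not tested.

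**Figure D4:**
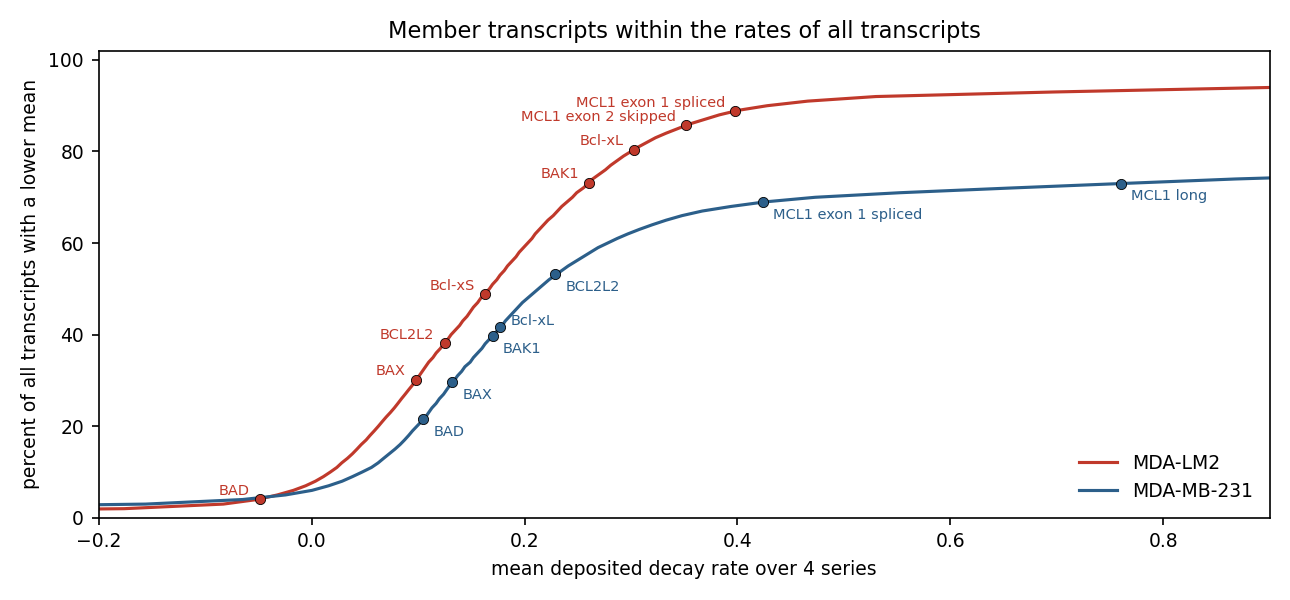
Mean deposited decay rate over 4 series (horizontal) against the percentage of the 12966 transcripts with a lower mean (vertical), with a curve for all transcripts and a point for each member transcript, MDA-LM2 in red and MDA-MB-231 in blue. Percentages are within each line, and the curves of the lines differ. Bcl-xL stands at 80.4% in MDA-LM2, against 41.7% in MDA-MB-231, and BAD at 4.12% in MDA-LM2, against 21.5% in MDA-MB-231; the long MCL1 form in MDA-LM2 and the exon-skipped MCL1 and Bcl-xS forms in MDA-MB-231 lie beyond the axis.

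By class, the median over the gene-level values of the 3 genes listed as anti-apoptotic was 0.24 ± 0.089 in MDA-LM2, against 0.335 ± 0.131 in MDA-MB-231 (SD, n = 4 series each). These gene-level values are not those of the anti-apoptotic proteins' own transcripts: in all 8 series the MCL1 value came from a form described above as pro-apoptotic, and the BCL2L1 value lay midway between Bcl-xL and Bcl-xS. On the transcripts that encode the anti-apoptotic proteins, the mean rate was higher in MDA-LM2 for 2 of 3 (a difference of 0.347 for the long MCL1 form, not called, and of 0.125 for Bcl-xL, called) and lower for BCL2L2 (-0.105, not called). The median over both effectors was 0.18 ± 0.0193 in MDA-LM2, against 0.151 ± 0.102 in MDA-MB-231. The BH3-only class held BAD alone, at -0.0485 ± 0.165 in MDA-LM2, against 0.105 ± 0.129 in MDA-MB-231. In MDA-LM2 the anti-apoptotic median ranged from 0.137 to 0.321 over the series and the effector median from 0.164 to 0.207, so the ranges overlapped. In MDA-MB-231 they were 0.234 to 0.514 and 0.0395 to 0.264 and overlapped as well. At gene level, all 3 genes of the anti-apoptotic list, 1 of the 2 effectors and BAD had a lower mean in MDA-LM2, as did 67.0% of all genes, and after centring the same members did, against 59.1% of all genes.

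AU-rich repeats in the 3′ untranslated region (UTR) are known as destabilising elements, and the letters ATTTA, their core, and TTATTTATT, which contains it, were counted on the transcribed strand of the matched GENCODE transcripts. Of the 11517 transcripts with a rate and a 3′ UTR of at least 20 bases, 71.3% held ATTTA and 8.33% held TTATTTATT. The long MCL1 transcript held 10 ATTTA in 2819 bases, and 23.0% of the 670 3′ UTRs within 10% of its length held at least as many. BCL2L2 held 5 in 2794 bases, which 66.4% of 3′ UTRs of like length matched or exceeded. Bcl-xL and Bcl-xS shared a 3′ UTR of 1497 bases with 3, matched or exceeded by 54.4%. BAX, BAK1 and BAD held 0, where 70.7%, 83.1% and 46.9% of 3′ UTRs of their lengths held at least 1. None of the 9 member transcripts held TTATTTATT in these annotated 3′ UTRs. The GENCODE 3′ UTR of the exon-skipped MCL1 form is cut short at 294 bases and held 1 ATTTA. A 26-base window with the most ATTTA is shown for the long MCL1 form and for BCL2L2, which held the most ATTTA of the members' genes, with the motif in capitals and as a description of sequence only.
MCL1 NM_021960, bases 1131 to 1156 of the 3′ UTR: cctaATTTAactggtgaaATTTAaag
BCL2L2 NM_001199839, bases 1183 to 1208 of the 3′ UTR: tagaagcATTTAtgATTTAtttgaag

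Of 14 further genes of the family, 8 had rows in both tables, 7 of them with a lower mean in MDA-LM2, as 67.0% of all genes had. By limma over all genes, 2 of the 8 decayed more slowly in MDA-LM2, BNIP3 and BOK, and 0 faster, against 6.71% and 2.00% of all genes. The median difference of the 8 was -0.127, against -0.0539 over all genes. BNIP3 encodes a mitochondrial BH3-like protein of hypoxia and mitophagy. Its rates were -0.000601, 0.0132, 0.00786 and 0.00406 in MDA-LM2, against 0.156, 0.183, 0.163 and 0.144 in MDA-MB-231. The MDA-LM2 series all lay within 0.0132 of 0, and every MDA-MB-231 series lay above them. The difference was -0.155 (interval -0.187 to -0.124, limma adjusted p = 0.000413), and with correlated series the adjusted p was 0.00411. With correlated series 3.50% of all genes and 3.25% of all transcripts were called, and among the members 0 of either. Annotation holds 39 processed pseudogenes of BNIP3, whose part in these rates was not tested.

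BOK, an effector-like member, had rates of 0.118, 0.206, 0.128 and 0.188 in MDA-LM2. In MDA-MB-231 its rates were 9.41, 9.5, 9.31 and 9.29. The difference of -9.22 (limma adjusted p = 5.91e-05, with correlated series 0.000325) rested on rates above 5, which 9.12 to 10.0% of transcripts had in each MDA-MB-231 series, and what a rate of that size stands for is not stated. With rates limited to -1 to 1 the difference was -0.84 (limma adjusted p = 0.000223). That limit set every MDA-MB-231 rate of BOK to 1, with no spread. The result was therefore fixed by the limit and is no further evidence for the difference. PMAIP1 encodes the BH3-only protein NOXA, the selective partner of MCL1. Its rates were 0.322, 0.366, 0.378 and 0.468 in MDA-LM2, against 9.8, 0.622, 0.689 and 9.79 in MDA-MB-231. Every MDA-LM2 rate was the lower, with 2 MDA-MB-231 series above 5, and the difference of -4.84 missed the threshold (limma adjusted p = 0.27).

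The other 5 measured genes were not called. BNIP3L, a paralogue of BNIP3, averaged 0.0168 ± 0.00385 in MDA-LM2, against 0.0685 ± 0.0317 in MDA-MB-231 (SD, n = 4 series each; limma adjusted p = 0.118). Without MDA-MB-231 series 2_2 its difference was -0.0676 and passed the test (adjusted p = 0.019). BCL2L13 averaged 0.133 ± 0.0213 in MDA-LM2, against 0.231 ± 0.0905 in MDA-MB-231, and BCL2L15 0.165 ± 0.0156 in MDA-LM2, against 0.264 ± 0.108 in MDA-MB-231. BCL2L12 averaged 0.844 ± 0.502 in MDA-LM2, against 0.196 ± 0.713 in MDA-MB-231. MOAP1, a partner of BAX, averaged 0.595 ± 0.167 in MDA-LM2, against 2.56 ± 4.6 in MDA-MB-231, where 1 series stood at 9.46. BCL2 itself had a row in the MDA-LM2 table only, at -0.0759, 0.228, 0.0253 and -1.07, as did BCL2A1, at 0.0996, -7.96, 0.509 and -0.243.

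**Figure D5:**
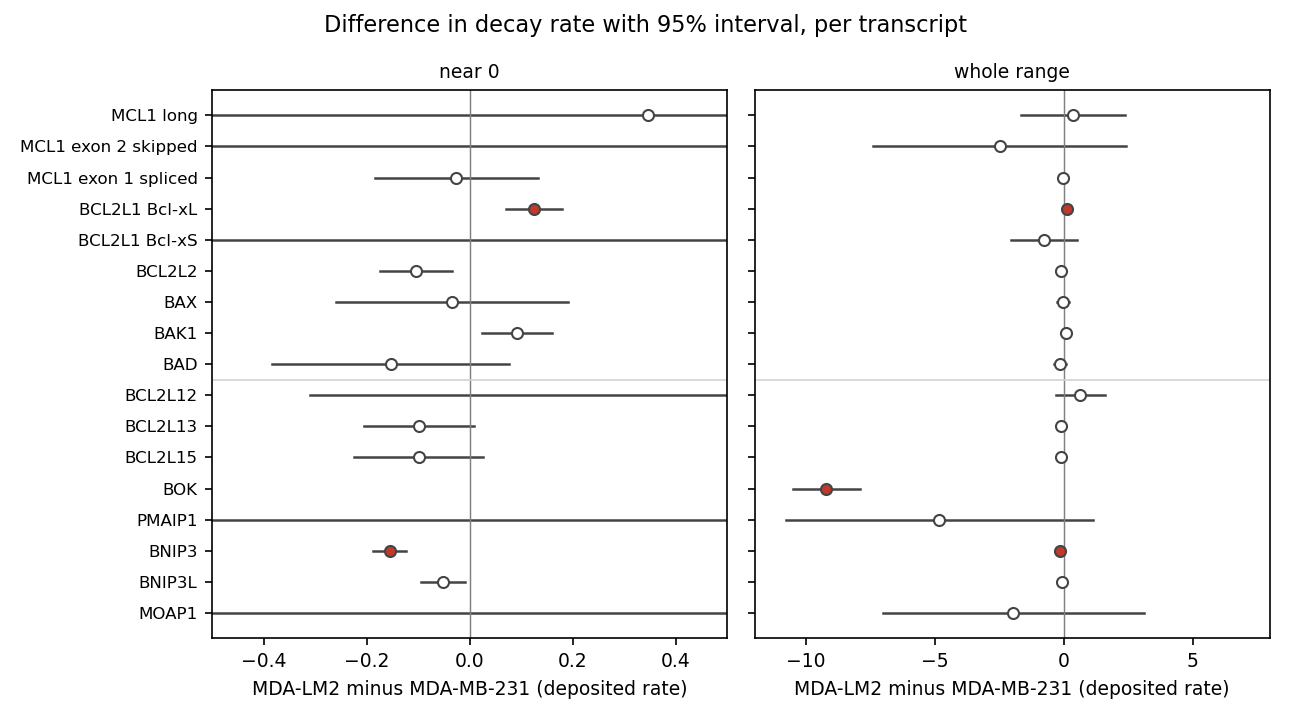
Difference in mean decay rate, MDA-LM2 minus MDA-MB-231, with its 95% interval from limma for the 9 member transcripts (above the line) and 8 further family transcripts (below it), near 0 on the left and over the whole range on the right. Filled points passed an adjusted p of 0.05: Bcl-xL at 0.125, BNIP3 at -0.155 and BOK at -9.22.

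Downstream of the pores, 8 of 11 caspase and apoptosome genes were measured and 2 decayed more slowly in MDA-LM2, APAF1 and CYCS, with 0 faster, against 6.71% and 2.00% of all genes. The median difference was -0.102, against -0.0539 over all genes. CYCS encodes cytochrome c, the protein released through the pores, and had rates of 0.00232, 0.0499, 0.0107 and 0.0436 in MDA-LM2, against 0.13, 0.131, 0.127 and 0.114 in MDA-MB-231. No series overlapped, and the difference was -0.0988 (interval -0.136 to -0.0617, limma adjusted p = 0.0108, with correlated series 0.0364). APAF1, the scaffold that cytochrome c assembles into the apoptosome, had rates of -0.0792, -0.00118, -0.0757 and -0.0923 in MDA-LM2. In MDA-MB-231 its rates were 1.52, 1.36, 1.51 and 1.43, and the difference was -1.52 (limma adjusted p = 5.89e-05, with correlated series 0.000325). Each of these MDA-MB-231 rates was above 1, so APAF1 was not part of the restricted-range fits. Over all transcripts, the 75th percentile of the mean rate over 4 series was 1.01 in MDA-MB-231, against 0.27 in MDA-LM2. Such a mean can rest on 1 series, as for NM_182763 of MCL1 in MDA-MB-231 (mean 2.85, with 1 series at 9.56), which was not so for APAF1.

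No gene was called in the 4 other lists of the pathway by limma, with or without correlated series. Over all genes, the median difference was -0.0539 and 26.2% had an unadjusted p under 0.05, which is the background for the counts of these lists. Inhibitors of apoptosis and their antagonists (7 of 8 measured) had a median difference of -0.0767, and 3 had an unadjusted p under 0.05. Within that list XIAP, which blocks caspases, averaged 0.151 ± 0.103 in MDA-LM2, against 0.482 ± 0.519 in MDA-MB-231, and BIRC6 0.107 ± 0.0276 in MDA-LM2, against 0.131 ± 0.0231 in MDA-MB-231 (SD, n = 4 series each). Death receptors and adaptors (6 of 10 measured) had a median difference of -0.0271 and 0 genes with an unadjusted p under 0.05. The receptor gene TNFRSF1A averaged 0.394 ± 0.0874 in MDA-LM2, against 0.367 ± 0.056 in MDA-MB-231, and TNFRSF10A 0.18 ± 0.0286 in MDA-LM2, against 0.188 ± 0.0861 in MDA-MB-231.

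All 9 outer-membrane partner genes had a lower mean in MDA-LM2 (all but VDAC3 after centring), against 67.0% of all genes (59.1% after centring), with a median difference of -0.842, 3 with an unadjusted p under 0.05 and only 3 with every rate within 1 of 0. Of these, VDAC1, an outer-membrane channel, averaged 0.022 ± 0.03 in MDA-LM2, against 0.141 ± 0.0652 in MDA-MB-231 (limma adjusted p = 0.0856). VDAC3 averaged 0.0467 ± 0.0294 in MDA-LM2, against 0.066 ± 0.0672 in MDA-MB-231. Ubiquitin ligases and deubiquitinases of MCL1 and BIM (5 of 7 measured) had a median difference of 0.00573, and 1 had an unadjusted p under 0.05. FBXW7, a ligase subunit that marks MCL1 for destruction, averaged 0.261 ± 0.1 in MDA-LM2, against 0.155 ± 0.0776 in MDA-MB-231. USP9X, which removes ubiquitin from MCL1, averaged 0.0561 ± 0.0183 in MDA-LM2, against 0.0763 ± 0.252 in MDA-MB-231.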

How the data were processed

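RNA labelled with 4sU was measured in MDA-LM2 and MDA-MB-231 cells by RNA-seq (ScriptSeq V2, per the labels' protocols). The values used are the decay rate scores per transcript and series that the authors deposited, and the authors' differential score, both in the authors' own unit. The submitters' processing notes name TopHat, Cufflinks and hg18, with no version or role. No half-life was computed, since the sources used here do not give the log base, the treatment of zeros or the scaling. Depth is unknown. The differential score equalled, within 0.001 for all 12966 transcripts, 1 minus an unequal-variance p, signed positive where the mean was lower in MDA-LM2.

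Symbols came from a RefSeq gene table (GRCh38.p14, 12644 accessions) and GENCODE v29 (118); 204 accessions without a symbol stood for themselves. Transcripts of a gene were joined by their median (9137 genes had a single transcript). The 4 series of each line were compared with limma 3.58.1 in R 4.3.3 (two-sided, with a variance trend and without a block; Benjamini-Hochberg over all genes, or over all transcripts where said, threshold 0.05), and the code was tested on simulated data. "Correlated series" means a correlation, estimated at 0.457 for genes, between series of a line with the same second label number. Differences are MDA-LM2 minus MDA-MB-231. Alternatives were centring, no trend, robust fit, mean over transcripts, restricted range, correlated series, a replicate block and leaving out each series. Isoform gaps were compared by exact permutation tests. Structure, junctions and 3′ UTRs came from GENCODE v29 by transcript identifier, so no coordinate was converted from hg18.

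Genes named were all members, every measured further family gene, from each other list the called genes and the fastest and slowest gene with all rates within 1 of 0, and the 3 genes nearest to MCL1; the same search for BCL2L11 was not possible without rates in both lines. Not every gene this rule selects is reported here. The members and lists were chosen with earlier results of these data known.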

Additional observations from a re-analysis of the deposited data

Results flagged for a closer look

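In 63 groups of 4 series, over member, further family and named pathway genes, a Dixon test at its 95% critical value marked 8 in which 1 series stood far from the other 3. About 3.15 would be marked by chance if rates were normal and groups independent. The groups include gene medians beside the transcripts they come from, so they are not independent, and the 2 numbers do not measure an excess. In MDA-MB-231 the exon-skipped MCL1 transcript NM_182763 stood at 9.56 in series 1_1, against 0.514 to 0.691 in the others. The Bcl-xS transcript NM_001191 stood at 2.64 in MDA-MB-231 series 1_2, against 0.25 to 0.538, and this set the BCL2L1 gene median of that series at 1.4, against 0.221 to 0.354. BAD stood at -0.0873 in MDA-MB-231 series 1_1, against 0.159 to 0.182. BNIP3L stood at 0.0211 in MDA-MB-231 series 2_2, against 0.082 to 0.0866, and MOAP1 at 9.46 in series 1_1, against 0.202 to 0.305. In MDA-LM2, BCL2L12 stood at 0.0966 in series 1_1, against 1.04 to 1.18, and BCL2A1 at -7.96 in series 1_2, against -0.243 to 0.509.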

How the results depend on the processing

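Over all genes, 727 were called slower and 217 faster in MDA-LM2. The counts were 344 and 35 with correlated series within a line, and 250 and 27 with a replicate block. Restricted range with correlated series, chosen after seeing the data, gave 1 slower and 0 faster (1312 genes had an unadjusted p under 0.05). Centring gave 434 faster, and the p behind the deposited score called 139 transcripts faster. Leaving out 1 series gave 406 to 1008 slower and 84 to 283 faster.

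The MCL1 difference of -0.194 kept its size but lost its call with a robust fit (adjusted p = 0.156), with rates limited to -1 to 1 (0.0787), with correlated series (0.109, in restricted range 0.169) and with the replicate block (0.133). The mean over transcripts gave -0.724. On transcripts the MCL1 differences were -0.0258 (NM_001197320), -2.49 (NM_182763) and 0.347 (NM_021960, the opposite sign). None was called by limma or by the p behind the deposited score, and both use the same rates. Leaving out 1 series gave -0.206 to -0.171. The BCL2L1 gene difference of -0.321 had the opposite sign to its Bcl-xL transcript (0.125), and it ranged from -0.433 to -0.0386 with 1 series left out. BCL2L2 (-0.105) and BAK1 (0.0911) had an unadjusted two-sided exact permutation p of 0.0286, the smallest possible for 4 against 4 series, and BAK1 was called after centring (0.116). With 1 series left out BAX ranged from -0.105 to 0.0342, NM_001197320 from -0.0655 to 0.0173 and NM_021960 from -0.112 to 0.906.

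Under the replicate block Bcl-xL (0.125, adjusted p = 0.147) and CYCS (adjusted p = 0.107) lost their calls. BNIP3 and CYCS lost theirs in restricted range with correlated series (adjusted p of 0.078 and 0.106). PMAIP1 was called with rates limited to -1 to 1 (-0.445, adjusted p = 0.0421). Signs turned for MOAP1 with limited rates (0.147) and, after centring, for BIRC6 (0.00157), TNFRSF10A (0.0162), VDAC3 (0.00542) and USP9X (0.00458). With 1 series left out MOAP1 ranged from -2.76 to 0.331, TNFRSF10A from -0.0312 to 0.0312, TNFRSF1A from -0.0154 to 0.0474, VDAC3 from -0.0403 to 0.0124 and USP9X from -0.106 to 0.0752. The cause of these changes was not tested. Same-numbered series of the lines did not deviate together (correlations from -0.0373 to -0.00799 over 7224 genes with every rate within 1 of 0). Whether such series were prepared together is not stated and cannot be read from these correlations. Read depth is unknown, so its limit on these rates could not be given.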
